A study of Mus musculus with 12 samples.

Results

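Levels of 9 genes of myelin and of the cells that make it, Mbp, Mobp, Mog, Mag, Mal, Cldn11, Ugt8a, Olig1 and Olig2, were followed across the hypothalamus of mice that drank water or alcohol. Every non-control probe that the array files name for one of these genes was taken, which gave 19 probes of 41174 on the array and 9 genes of 27827 gene names. The mice were male, outbred ICR animals, 3 weeks old at the start, with free access to a pair of drinking tubes. Control mice had water in both tubes. Alcohol mice had water in 1 tube and a 5% or a 10% alcohol solution in the other. The labels give day 51 of the experiment as the day of sacrifice, and the series' design text has drinking last to day 57. RNA of 9 water mice made 3 pools of 3 mice, and RNA of 19 alcohol mice made 9 pools of 1 to 3 mice, which the labels divide into 3 pools each of low, early high and late high alcohol drinkers. The labels group the pools by drinking pattern and not by solution. Each pool was hybridized to 1 single-color (Cy3) array, and a value below is the log2 of the spot's signal minus the log2 of the 75th percentile of the signal on that array.

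Oligodendrocytes are the glial cells that wrap axons of the central nervous system in myelin, a stack of lipid-rich membrane held together by a small set of abundant proteins. The lineage is specified by the basic helix-loop-helix factors OLIG1 and OLIG2, and maturing cells then switch on the structural proteins of myelin and the enzymes for its galactolipids. Myelination of the mouse brain goes on through the weeks after weaning, the period over which these mice drank. In whole tissue, fewer oligodendrocytes and less RNA per oligodendrocyte cannot be told apart.

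The cell type was present in every pool. The oligodendrocyte markers Mbp, Mog, Mag, Cnp and Sox10 were well above background on all 12 arrays, as were 7 of 7 neuropeptide markers of the hypothalamus. The brightest probe of each of the 9 genes was well above background on all 12 arrays, no spot was saturated, and the raw signal, averaged over the spots of a probe, ran from 898 for Mog to 156943 for Mbp. The arrays came from 3 slides. All water pools shared slide 1 with the first low drinker pool. The remaining low drinkers and the first 2 early high drinkers made up slide 2, and the last early high drinker and all late high drinkers slide 3. Slide 1 was scanned on a different day from slides 2 and 3. Since slides 2 and 3 carried no water pool, a difference from water is in large part also a difference between slides and scan days. Across arrays, the 75th percentile of signal was 1512 to 1853, and 67.0% to 79.3% of spots were well above background.

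Whether chronic drinking changed these genes was asked first with all 9 alcohol pools against the 3 water pools. No member passed an adjusted p of 0.05 by limma (0 of 9, with adjusted p between 0.819 and 0.963), and none had an unadjusted p under 0.05. Over all 32371 probes tested, 0% passed the adjusted threshold and 5.52% the unadjusted one. The differences were small, from -0.18 for Ugt8a to 0.19 for Mbp, which is at most a factor of 1.14 in either direction. Above 0 lay 6 of the 9 differences, against 59.6% of all probes, and the median of the members was 0.06 against 0.03 for all probes. With normexp background correction the medians were 0.01 for the members and 0.03 for all probes. On its brightest probe, none of the 9 genes had all alcohol pools above or all below the water pools (0.986% and 0.325% of all probes). With limma standard errors between 0.06 and 0.10 for the members, the largest difference was about 2 standard errors from 0.

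**Figure D1:**
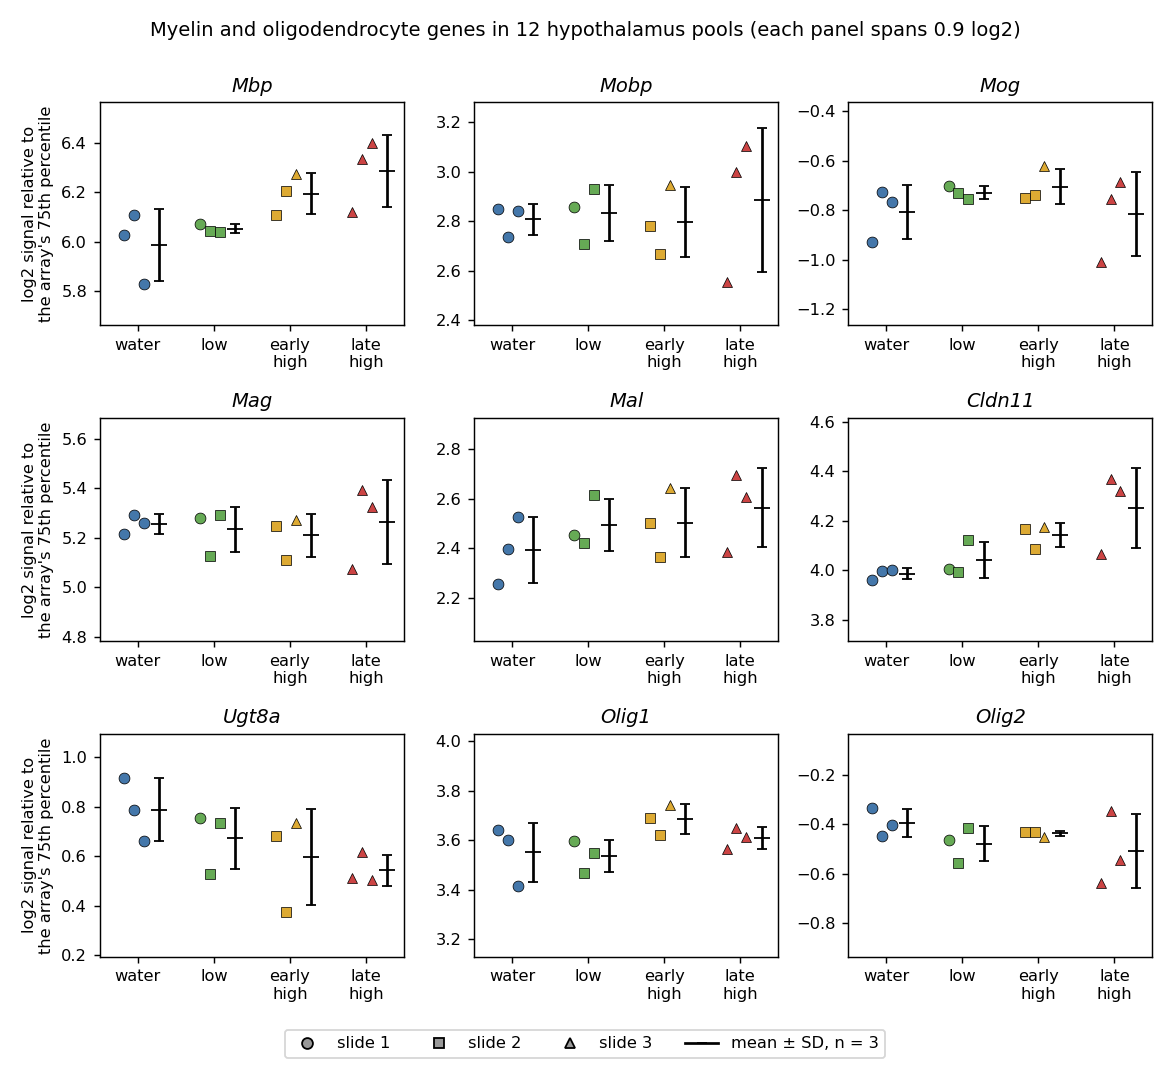
Log2 signal relative to the array's 75th percentile (vertical axis, each panel spanning 0.9) for the main probe of each gene in the 3 pools of each drinking group (horizontal axis), with marker shape for the slide and the bar for mean ± SD. Mbp and Cldn11 are highest in late high drinkers, and Ugt8a is highest in water. Late high drinker pool 1 sits below the other 2 pools of its group for every gene but Ugt8a.

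Mbp encodes myelin basic protein, which binds the cytoplasmic faces of the membrane together as myelin compacts. Its brightest probe, printed at 10 spots on each array, lies at chr18:82754755-82754814 (mm9, plus strand). Its level was 6.03, 6.11 and 5.83 in the water pools and 6.07, 6.05 and 6.04 in the low drinkers. It was 6.11, 6.20 and 6.27 in the early high drinkers and 6.12, 6.34 and 6.40 in the late high drinkers. All 3 late high drinker pools lay above all 3 water pools, and all 6 high drinker pools lay above all 3 low drinker pools, while alcohol as a whole overlapped with water. The group means stood in order from water (5.99 ± 0.15, SD, n = 3) through low (6.05 ± 0.02) and early high (6.19 ± 0.08) to late high (6.29 ± 0.14). Neighbors in this order differed by less than 2 limma standard errors.

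The difference of Mbp from water was 0.19 (SE 0.09) over all alcohol pools, with an exact 2-sided permutation p of 0.0636 over 220 splits, where 0.00455 is the smallest possible. In late high drinkers it was 0.30 (SE 0.09, unadjusted p 0.00948, adjusted p 0.177 by limma). High against low drinkers gave 0.19 (SE 0.08), with an adjusted p of 0.323 by limma and an exact permutation p of 0.0357 over 84 splits. Comparisons of 3 pools against 3 cannot go below 0.10, which leaves 18 exact tests over the 9 genes (alcohol against water and high against low drinkers). Of these 18, 2 gave a p under 0.05, this one and Olig1 in the same comparison. On the members' other probes 2 of 54 exact tests, those of 3 pools against 3 included, gave a p under 0.05. The share over all probes was not computed for exact tests. With 3 outlier spots on 2 arrays left out, the spots of an array had an SD of 0.05 to 0.15 around the value given.

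The other probes of Mbp did not follow the first. The probe at chr18:82727929-82727988 differed from water by -0.04 (SE 0.06) in alcohol, and the probe that spans chr18:82742266-82744570 by -0.13 (SE 0.13). Across the 12 arrays their correlation with the brightest probe was -0.38 and -0.05 (Pearson; Spearman -0.33 and -0.02), as a description over pools that share slides. The probe that spans chr18:82742266-82744570 was lowest in late high drinker pool 1 (1.67). Averaged over its 3 probes, Mbp differed from water by 0.01 in alcohol and by 0.01 in late high drinkers, so the positive difference rests on 1 of 3 probes. The files give each probe's position and no exon, and the exon each probe lies in was not determined here.

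Cldn11 encodes claudin 11, which forms the tight junctions between the layers of central myelin. Its single probe (chr3:31062922-31062981, plus strand) read 3.96, 3.99 and 4.0 in water and 4.01, 3.99 and 4.12 in low drinkers. It read 4.17, 4.08 and 4.17 in early high drinkers and 4.07, 4.37 and 4.32 in late high drinkers. Every early and every late high drinker pool lay above every water pool, and low drinkers overlapped with water. The order of group means was the same as for Mbp, from 3.99 ± 0.02 in water through 4.04 ± 0.07 and 4.14 ± 0.05 to 4.25 ± 0.16 (SD, n = 3 each).

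The difference of Cldn11 from water was 0.16 (SE 0.08) in all alcohol pools, with an exact permutation p of 0.0636. In early high drinkers it was 0.16 (SE 0.08, adjusted p 0.890 by limma), and in late high drinkers 0.26 (SE 0.08, unadjusted p 0.00832, adjusted p 0.171). Each of these comparisons sets 3 pools against 3, where an exact permutation test cannot go below 0.10. High against low drinkers differed by 0.16 (SE 0.07, adjusted p 0.340 by limma).

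In late high drinkers against water, 3 of 9 members had an unadjusted p under 0.05 by limma and 0 of 9 an adjusted one. Of all 31611 probes, 15.9% and 0% did. The members were Mbp and Cldn11 above water (6.98% of all probes) and Ugt8a below it (8.94%). For the brightest probes of the same 3 genes the late and water pools did not overlap, 2 above (12.5% of 29517 probes) and 1 below (13.5%). The members' median difference was 0.06, against 0.00 for all probes. It was -0.02 without late high drinker pool 3, 0.02 without late high drinker pool 2 and 0.01 without water pool 3. It was 0.10 without late high drinker pool 1 or water pool 1. With normexp background correction it was 0.02, and with slide as a fixed term -0.07.

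In early high drinkers against water the pools did not overlap for the brightest probe of 1 member, Cldn11, which lay above (10.8% of all probes, with 5.58% below). No member passed the adjusted threshold there (0% of all probes) or the unadjusted one (4.71%). The median of the members was 0.10, against 0.02 for all probes, and it was 0.04 without water pool 1 or early high drinker pool 3, 0.07 without water pool 3, 0.01 with normexp background correction and -0.01 with slide as a fixed term. In low drinkers against water no member passed either threshold by limma, with 0.218% of all probes past the adjusted one and 9.06% past the unadjusted one. On the brightest probes no member's low and water pools were apart (6.88% of all probes above, 2.16% below), and the differences ran from -0.12 to 0.10. The median was 0.02 for the members and 0.04 for all probes. With 1 array left out the members' median ran from -0.02 without low drinker pool 3 to 0.07 without low drinker pool 2. It was -0.06 with no scaling between arrays.

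**Figure D2:**
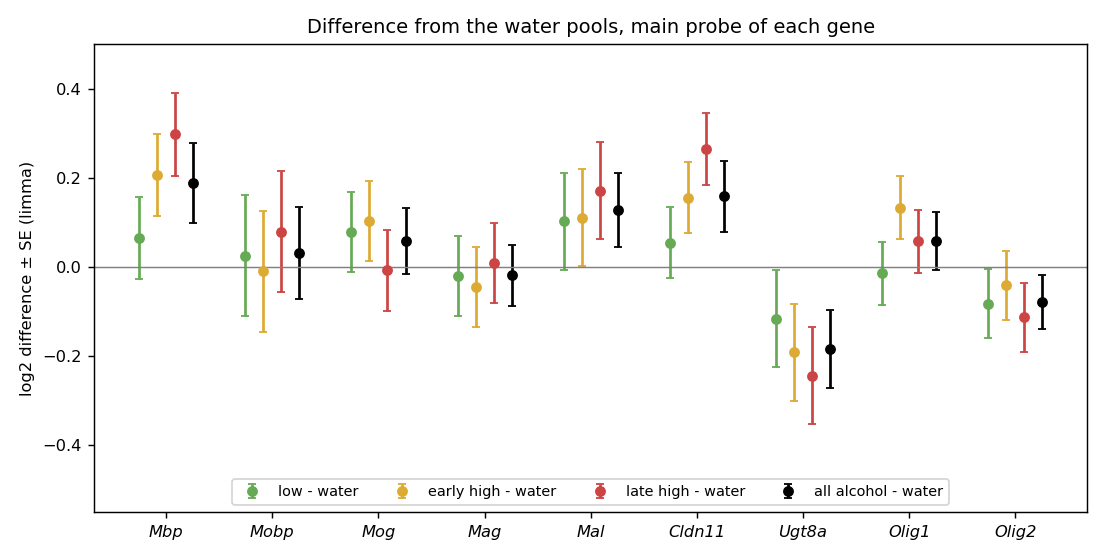
Log2 difference from the 3 water pools (vertical axis, limma estimate ± SE) for the main probe of each gene (horizontal axis), in low, early high and late high drinkers (3 pools each) and in all 9 alcohol pools. Mbp and Cldn11 reach 0.30 and 0.26 in late high drinkers and Ugt8a -0.24, while Mag stays between -0.04 and 0.01.

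Mal encodes a small raft-associated proteolipid that takes part in membrane traffic of myelin-forming cells. Its brightest probe (chr2:127458966-127458993 as the files give it, minus strand) read 2.25, 2.40 and 2.52 in water and 2.45, 2.42 and 2.61 in low drinkers. It read 2.50, 2.36 and 2.64 in early high drinkers and 2.39, 2.70 and 2.61 in late high drinkers. The alcohol pools overlapped with water throughout, with 7 of 9 above the water mean and a difference of 0.13 (SE 0.08, exact permutation p 0.168). Its second probe (chr2:127459473-127459532) had 9 of 9 alcohol pools above the water mean, early and late high drinkers above every water pool, and a difference in late high drinkers of 0.32 (SE 0.09, adjusted p 0.150 by limma). The probes of Mal correlated at 0.72 across arrays.

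Mobp encodes a small basic protein of compact central myelin. Its brightest probe (chr9:120090501-120090560, plus strand) read 2.85, 2.73 and 2.84 in water and 2.86, 2.71 and 2.93 in low drinkers. It read 2.78, 2.67 and 2.95 in early high drinkers and 2.56, 3.00 and 3.11 in late high drinkers. The late high drinkers held both the lowest and the highest pool of all 12, and their SD (0.29) was the largest of any group for any member's main probe. The difference of alcohol from water was 0.03 (SE 0.10). Another probe of Mobp (chr9:120084777-120084836) lay above the water mean in 9 of 9 alcohol pools, with a difference of 0.28 (SE 0.11, adjusted p 0.819 by limma, exact permutation p 0.0318). On that probe the low and the late high drinkers lay above every water pool, and the late high drinkers differed from water by 0.42 (SE 0.12, unadjusted p 0.00576, adjusted p 0.154 by limma), the largest such difference of any member's probe. The remaining probe (chr9:120077006-120077065) differed by 0.06 (SE 0.11), and the 3 pairs of Mobp probes correlated at 0.21 to 0.69.

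Mog and Mag encode immunoglobulin-family glycoproteins, MOG at the outer face of the sheath and MAG at the face next to the axon. Mog (chr17:37157407-37157466, minus strand) read -0.93, -0.73 and -0.76 in water, and its alcohol pools ran from -1.01 through a median of -0.74 to -0.62. The lowest alcohol pool was late high drinker pool 1 and the highest early high drinker pool 3, on the same slide. Mag (chr7:31684231-31684290, minus strand) read 5.21, 5.29 and 5.26 in water, and its alcohol pools ran from 5.07 through a median of 5.27 to 5.39. On these brightest probes neither gene separated any group from water, with differences in alcohol of 0.06 (SE 0.07) for Mog and -0.02 (SE 0.07) for Mag. On its brightest probe Mag had the narrowest set of differences from water, between -0.04 and 0.01 over the 3 drinking groups. The second probe of Mag (chr7:31692038-31692097) read 2.03, 1.92 and 1.90 in early high drinkers, all above the water pools (1.70, 1.84 and 1.78), with a difference of 0.18 (SE 0.14). The second probe of each gene correlated with the first at 0.66 for Mog and 0.45 for Mag.

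Ugt8a encodes the ceramide galactosyltransferase that makes galactosylceramide, the typical lipid of myelin. It was the one member whose main probe lay below the water mean in 9 of 9 alcohol pools. The probe (chr3:125568995-125569054, minus strand) read 0.91, 0.79 and 0.66 in water and 0.75, 0.53 and 0.73 in low drinkers. It read 0.68, 0.37 and 0.73 in early high drinkers and 0.51, 0.62 and 0.50 in late high drinkers. All 3 late high drinker pools lay below all 3 water pools, and low and early high drinkers overlapped with water. The difference was -0.18 (SE 0.09, exact permutation p 0.0636) in all alcohol pools and -0.24 (SE 0.11, unadjusted p 0.0486, adjusted p 0.311 by limma) in late high drinkers. The second probe of Ugt8a, which spans chr3:125570466-125574530, differed from water by -0.12 (SE 0.12) in alcohol and -0.20 (SE 0.13) in late high drinkers, and correlated with the first at 0.71. The remaining probe of Ugt8a had a value on 1 of 12 arrays and was well above background on none.

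Olig1 (chr16:91271799-91271858, plus strand) read 3.64, 3.60 and 3.42 in water, and its alcohol pools ran from 3.47 through a median of 3.61 to 3.74. High against low drinkers differed by 0.11, with an exact permutation p of 0.0476, and the pools of both overlapped. Olig2 (chr16:91228470-91228529, plus strand) read -0.33, -0.45 and -0.40 in water, and its alcohol pools ran from -0.64 through a median of -0.45 to -0.35. Against water, Olig1 differed by 0.06 (SE 0.07) and Olig2 by -0.08 (SE 0.06) in alcohol. For Olig2, 1 of 9 alcohol pools lay above the water mean. A second Olig2 probe (chr16:91227115-91227174) was well above background on 5 of 12 arrays, was highest in low drinker pool 2 (-4.53), and did not follow the first (r of -0.10).

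High against low drinkers gave 2 of 9 members an unadjusted p under 0.05 by limma, Mbp and Cldn11, both higher, beside 14.7% of all probes (3.40% higher), and 0 of 9 an adjusted one, beside 0.0380%. On the brightest probes, only Mbp of the 9 genes had high drinker pools that were all above the low drinker pools (1.66% of all probes). Among the other probes, the second of Mal also had all high drinkers above the low drinkers (exact permutation p 0.0595), and the second of Ugt8a had all of them below (2.95% of all probes, exact permutation p 0.0476). The median of the members was 0.01, against -0.05 for all probes. With 1 array left out it ran from -0.03 without low drinker pool 2, where all probes had -0.01, to 0.08 without late high drinker pool 1. Late against early high drinkers gave 0 of 9 at either threshold (12.4% and 0% of all probes), with differences from -0.11 to 0.11. Over the 4 groups at once, 2 of 9 members had an unadjusted p under 0.05 by limma's F test, Mbp (0.0361) and Cldn11 (0.0367), beside 14.4% of all probes, and neither passed the adjusted threshold (0.00633% of all probes). Comparisons with water share the 3 water pools and are not independent of each other.

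Slides and drinking groups coincided in large part, and their shares of the spread cannot be told apart. The 3 slides accounted for 59.1% of the spread of Mbp over the 12 arrays, 61.0% for Cldn11, 40.7% for Ugt8a and 2.32% for Mog, and the 4 groups for 62.2%, 64.1%, 40.8% and 23.3%. Within slide 1, low drinker pool 1 differed from the water mean by 0.08 for Mbp, 0.02 for Cldn11 and -0.04 for Ugt8a. Within slide 2, early high drinkers differed from low drinkers by 0.11, 0.07 and -0.10 for the same genes. Within slide 3, late high drinkers differed from early high drinker pool 3 by 0.01, 0.08 and -0.19. These 3 genes were picked for their difference in late high drinkers, and the within-slide values use the same arrays as the group means. Over all 9 members the within-slide differences ran from -0.07 to 0.11 on slide 1, from -0.10 to 0.15 on slide 2 and from -0.19 to 0.08 on slide 3. These values have 1 to 3 pools on a side and no test. With slide as a fixed term in limma, the late high drinkers differed from water by 0.21 for Mbp, 0.16 for Cldn11 and -0.33 for Ugt8a, with adjusted p of 0.840, 0.859 and 0.771. For Mal the same fit gave -0.10 in place of 0.17, and for Mobp -0.11 in place of 0.08.

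Averaged over the members, the late high drinker pools lay furthest apart. Late high drinker pool 1 had 9 of 9 members below their own mean over the 12 arrays and was the lowest array for 4 of them, Mobp, Mog, Mag and Olig2. Late high drinker pools 2 and 3 on the same slide had 8 and 7 of 9 members above their mean, and early high drinker pool 3, also on that slide, had 9 of 9. Averaged over the 9 centered genes, the late high drinkers ran from -0.13 to 0.13, the early high drinkers from -0.06 to 0.10, the low drinkers from -0.09 to 0.03 and the water pools from -0.05 to -0.01. The water pools thus spanned 0.04 and the late high drinkers 0.26, with 3 pools in each. Per the methods, pools of mice that drank more held fewer animals than the water and low drinker pools, so pool size and drinking level cannot be told apart here or in high against low drinkers.

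**Figure D3:**
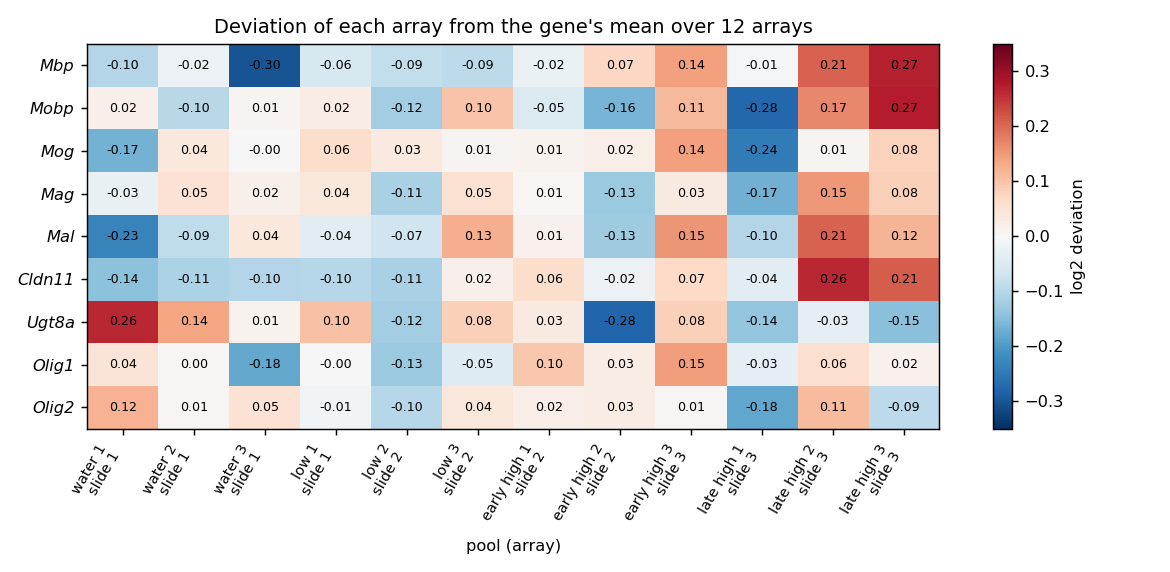
Log2 deviation of each array (horizontal axis, pools by group with their slide) from the mean of each gene over the 12 arrays (rows). Late high drinker pool 1 is below 0 for 9 of 9 genes and early high drinker pool 3 above 0 for 9 of 9, on the same slide.

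Several members varied together from pool to pool. Over the 12 arrays, 31 of 36 pairs of members correlated above 0, with a median of 0.36 (Pearson r, as a description over arrays that share slides). The share over all pairs of probes was not computed, so whether these genes stand out from others on the array was not tested. The 15 pairs of the myelin proteins Mbp, Mobp, Mog, Mag, Mal and Cldn11 ran from 0.30 to 0.85 with a median of 0.56. Mobp and Mag had the highest value at 0.85 (Spearman 0.84), followed by Mbp and Cldn11 at 0.80 (Spearman 0.74) and Mal and Cldn11 at 0.79 (Spearman 0.74). After slide means were subtracted the lowest of the 15 was 0.01 (Mbp and Mal, from 0.44), and without the 2 arrays farthest from the median it was 0.07. With slide means subtracted, Mobp and Mag stayed at 0.85, Mag and Cldn11 went from 0.56 to 0.88, Mag and Mal from 0.70 to 0.86, and Mbp and Cldn11 from 0.80 to 0.52. Ugt8a had a median of 0.08 over its 8 pairs and values of -0.36 with Mbp and -0.32 with Cldn11. After subtraction of slide means its median was 0.33 and its lowest value -0.01, beside a median of 0.27 for the 12 pairs of Olig1 or Olig2 with the myelin proteins. Olig1 correlated with Mbp at 0.67 (Spearman 0.56). Olig2 correlated at 0.53 with Mag (Spearman 0.24) and at 0.54 with Ugt8a (Spearman 0.34).

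**Figure D4:**
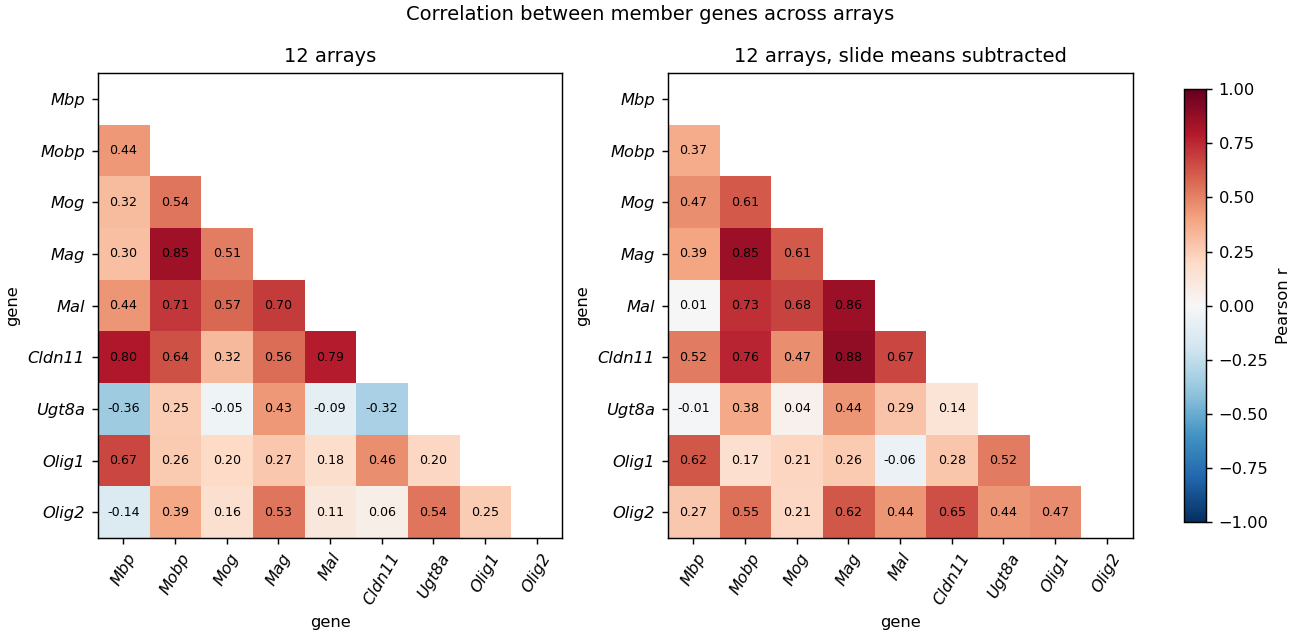
Pearson correlation between members over the 12 arrays, without (left) and with (right) subtraction of slide means, one gene per row and column. Mobp, Mag, Mal and Cldn11 form pairs at 0.56 to 0.85 on the left and 0.67 to 0.88 on the right, and Ugt8a is below 0 with Mbp and Cldn11 on the left.

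Mobp, Mag, Mal and Cldn11 moved together across pools, with 6 of 6 pairs above 0.5. These 4 genes were picked on these same correlations, so that count follows from the choice. Mbp and Cldn11, a pair not within the set, reached 0.80. The 250 bases before the annotated start of the 4 genes are shown here. They are taken from RefSeq (GRCm38.p6, sequence in the direction of the gene), at chr9:120149492-120149741 (plus), chr7:30914923-30915172 (minus, the outermost of 3 listed starts), chr2:127656696-127656945 (minus) and chr3:31149670-31149919 (plus). Capitals mark CANNTG, the E-box letters read by basic helix-loop-helix factors such as OLIG2, and ACAANG on either strand (CNTTGT on the strand shown), letters of the kind SOX factors read.
Mobp: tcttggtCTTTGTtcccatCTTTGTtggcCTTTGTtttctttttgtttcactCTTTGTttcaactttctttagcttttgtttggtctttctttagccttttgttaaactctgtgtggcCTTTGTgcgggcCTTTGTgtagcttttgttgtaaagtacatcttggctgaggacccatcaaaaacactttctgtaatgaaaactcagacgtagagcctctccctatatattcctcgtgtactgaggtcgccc
Mag: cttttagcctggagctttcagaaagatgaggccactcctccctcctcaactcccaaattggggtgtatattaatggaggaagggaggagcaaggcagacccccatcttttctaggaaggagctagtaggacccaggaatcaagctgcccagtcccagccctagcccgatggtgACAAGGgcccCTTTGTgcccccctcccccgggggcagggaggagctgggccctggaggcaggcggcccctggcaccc
Mal: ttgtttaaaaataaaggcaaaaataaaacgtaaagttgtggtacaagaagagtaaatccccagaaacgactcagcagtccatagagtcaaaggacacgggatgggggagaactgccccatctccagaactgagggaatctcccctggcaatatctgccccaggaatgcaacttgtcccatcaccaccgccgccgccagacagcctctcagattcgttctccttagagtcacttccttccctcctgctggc
Cldn11: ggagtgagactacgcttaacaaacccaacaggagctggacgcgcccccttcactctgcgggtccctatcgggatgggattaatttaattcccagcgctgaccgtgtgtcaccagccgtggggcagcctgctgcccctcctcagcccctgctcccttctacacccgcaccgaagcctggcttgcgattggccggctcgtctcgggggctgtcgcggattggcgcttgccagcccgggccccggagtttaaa
No 6-letter match of CANNTG lies in any of the 4 windows shown, and 66.2% of all 32851 listed promoter windows of this length hold at least 1. The other 2 windows listed for Mag, at chr7:30914322-30914571 and chr7:30914864-30915113, hold 2 and 1 matches of CANNTG. Mobp holds 6 matches of ACAANG, Mag holds 2, and Mal and Cldn11 hold none, beside 36.3% of all windows with at least 1. In none of the members' windows do the 2 sets of letters overlap. Of the 9 members, 7 have a listed promoter, and Mbp and Olig1 are named only.

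Other genes of the lineage were taken in 5 lists. Of 52 listed genes 51 were tested, and 0 passed an adjusted p of 0.05 by limma in alcohol against water, with 1 above and 1 below water at an unadjusted p under 0.05, beside 5.52% of all probes. The median over the 51 genes was -0.01, and 22 lay above 0, against 59.6% of all probes. Of the 14 other myelin proteins, 9 lay above water, with a median of 0.01. The highest difference among these proteins was that of Gjb1 (connexin 32) at 0.27 (SE 0.22) and the lowest that of Pllp (plasmolipin) at -0.18 (SE 0.14).

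The 8 genes of myelin lipid synthesis lay between -0.12 (Aspa, which cleaves N-acetylaspartate to free acetate) and 0.05 (Gal3st1, the sulfatide sulfotransferase), with a median of 0.00 and none at an unadjusted p under 0.05. The 6 tested lineage factors ran from -0.33 for Myrf (SE 0.28), which drives myelin genes, to 0.26 for Tcf7l2 (SE 0.31). The 7 precursor genes ran from -0.05 for Lhfpl3 to 0.32 for Neu4 (SE 0.16), a sialidase, with a median of 0.02. Of 16 genes of mature oligodendrocytes, 3 lay above water, with a median of -0.04. Car2, carbonic anhydrase 2, lay lowest of them at -0.16 (SE 0.07, unadjusted p 0.0406, adjusted p 0.819), and S1pr5, a lysophospholipid receptor, lay the highest at 0.17 (SE 0.15). In late high drinkers against water the 51 genes had 5 above and 2 below at an unadjusted p under 0.05 (6.98% and 8.94% of all probes) and 0 at an adjusted one, with a median of 0.02.

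**Figure D5:**
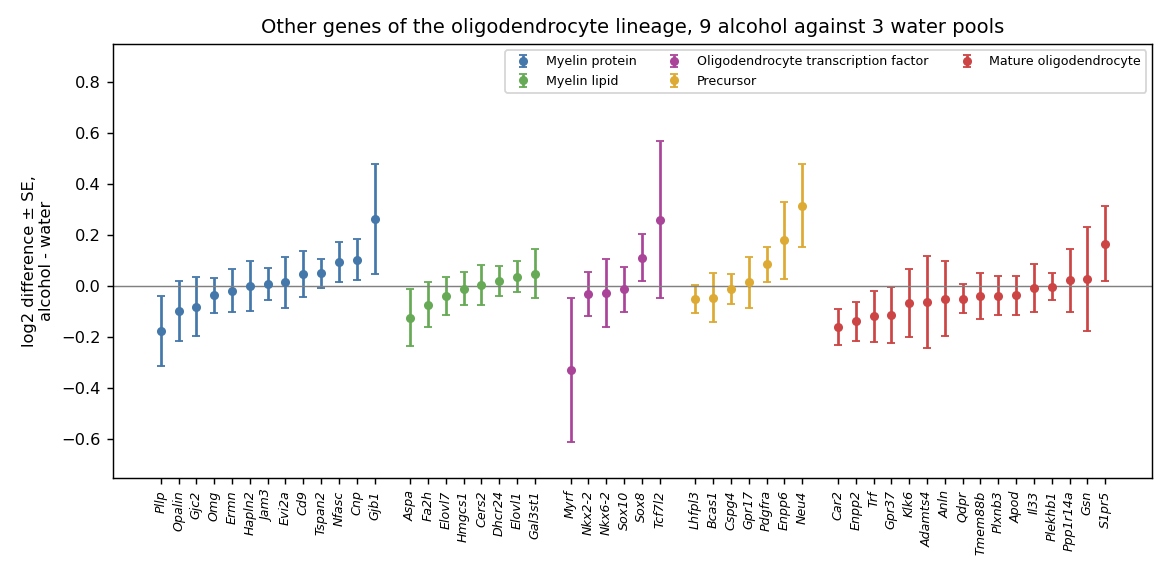
Log2 difference of the 9 alcohol pools from the 3 water pools (vertical axis, limma estimate ± SE) for 50 of the 51 tested genes of 5 lists (horizontal axis, sorted within a list). Most genes lie within 0.2 of 0, with Myrf at -0.33 and Neu4 at 0.32 at the ends.

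Markers of other cells differed between pools. Gjb1 is also a gene of Schwann cells, the myelinating cells of peripheral nerve, and read -2.66 and -3.03 in low drinker pools 2 and 3 and -3.21 and -3.17 in early high drinker pools 1 and 2, which together filled slide 2, against -3.69 to -3.61 in water and -3.68 in low drinker pool 1. On the same 4 arrays the Schwann cell gene Prx read -2.72, -3.41, -4.14 and -4.22, against -4.74 to -4.57 in water and -4.63 in low drinker pool 1. Dim spots were brighter in low drinker pool 2, where the 25th percentile of signal was 63.2, against 22.3 to 34.0 on the other arrays. Pmp2, also a Schwann cell marker, was well above background on 0 of 12 arrays. Without low drinker pool 1, Gjb1 passed the adjusted threshold in low drinkers against water (0.80, SE 0.13, adjusted p 0.00827 by limma), as did 8.11% of the 30650 probes tested in that fit, and none of the 9 members did. Gjb1 was named for that value after it was seen.

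Tcf7l2, which late high drinkers had at 2.72, 2.59 and 3.06 against 2.15, 2.15 and 1.89 in water, is also a gene of thalamic neurons. The 4 thalamus markers, Tcf7l2 among them, were all well above background on 12 arrays. Their sum was 9.25 to 16.8 times the 75th percentile in late high drinkers and 6.80 to 7.99 in water. It was 5.78 to 11.6 in low and 5.17 to 12.3 in early high drinkers. Tcf7l2 is part of each sum, which is therefore not independent of its own values. The mean of these markers correlated at 0.35 with the mean of the 9 members across arrays and at 0.17 after subtraction of slide means. The 6 neuron markers summed to 121 to 127 in water and 122 to 132 in alcohol, and the 6 astrocyte markers to 70.2 to 78.3 and 72.8 to 83.6. The corresponding correlations with the mean of the members were 0.54 (0.61 with slide means subtracted) for neurons, 0.38 (0.23) for astrocytes, 0.20 (0.38) for microglia, -0.51 (-0.38) for endothelium, -0.22 (-0.16) for the anterior pituitary, -0.35 (-0.01) for striatum, -0.19 (0.05) for blood and -0.08 (-0.10) for the hypothalamus markers, as a description over the same 12 arrays. The 6 astrocyte markers all lay above water in late high drinkers, with a median of 0.11 and none at an unadjusted p under 0.05. The 5 anterior pituitary markers summed to 0.911 to 3.37 in early high drinkers against 3.25 to 12.4 in water. Of them 4 of 5 were lower at an unadjusted p under 0.05 by limma, beside 4.71% of all probes in either direction. The 2 hemoglobin genes that stand for blood summed to 74.1 to 101 in late high drinkers against 120 to 147 in water. Both were lower at an unadjusted p under 0.05 by limma, beside 8.94% of all probes, and 0 of these markers passed the adjusted threshold. The part of peripheral nerve, of thalamus, of pituitary, of blood and of other neighboring tissue in the members' values was not tested.

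The genes whose level over the 12 arrays was most like the mean of the 9 members were ranked over 18742 annotated probes that were well above background on every array. The highest was Srd5a1, the steroid 5-alpha-reductase, at 0.89 (Spearman 0.85, and 0.88 after subtraction of slide means). It was followed by Nrip3 (0.88), Tcf19 (0.87), Mrpl54 (0.86), Acadl (0.86), Creb5 (0.84), Ddx3x (0.83), Slc44a1 (0.83), Cryl1 (0.83) and Bcas1 (0.82). Slc44a1 is a choline transporter, and Bcas1, a marker of newly myelinating oligodendrocytes, is also in the precursor list. Without the 2 arrays farthest from the median of the members' mean, these 10 ranged from 0.68 to 0.84. These are the highest of a large number of correlations over 12 arrays that share slides, given as a description.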

How the data were processed

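Hypothalamic RNA of 12 mouse pools was measured on Agilent whole mouse genome arrays (4 arrays a slide). Per array, the authors deposited scanner files with signal intensity per spot, corrected for background within the array by Feature Extraction (10.5.1.1 per the file headers) and linear, with no scaling between arrays. They also deposited a table of linear signal intensity per probe, within 0.01 on the log2 scale of the scanner values for at least 99.8% of probes on the arrays. The methods describe outlier removal, a log2 scale, a signal/noise minimum of 2 and presence in over 50% of the samples of a group. All labeled RNA had an integrity number of 8 or higher per the labels.

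Here intensities were taken to log2 and each array's 75th percentile over 43379 spots that are no controls was subtracted. Spots with signal/noise under 2 and spots flagged as non-uniform or population outliers were set to missing, spots of a probe were averaged, and probes with values on over 50% of the arrays of each group were tested with limma 3.58.1 in R 4.3.3 (lmFit, eBayes, Benjamini-Hochberg over all probes tested). Alcohol against water was fitted with 2 groups over 12 arrays, and the other comparisons with 4 groups over the same arrays. Exact permutation tests were 2-sided. A gene was read on its probe of highest mean. Replicates are pools, as labeled, and no 2 arrays had the same values. Array number limits the precision.

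The members and gene lists were chosen with earlier results of these data known. The genes named from each list are those with the largest rise and fall in alcohol, and the genes most like the members are the 10 probes of highest correlation. Of 41174 probes 25097 were named through RefSeq accessions (GRCm38.p6), and positions are those of mm9 in the files. Alternatives covered scaling, background correction, the deposited table, filters, outliers, slide, scan day, replicate number, choice of probe, the methods' t-test and each array left out. In simulated data with real means and spreads over 29517 probes, limma recovered 83.0% of 200 probes changed by 1 on the log2 scale in alcohol against water, and 47.5% of 200 changed by 0.5. In late high drinkers against water these were 75.0% and 35.5%. The simulated noise was independent between arrays, with no slide effect. The members' differences on their brightest probes were smaller than 0.5, and recovery of changes of their size was not simulated. Values of 2 genes of the lists are not reported here.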

Additional observations from a re-analysis of the deposited data

Results flagged for a closer look

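In the 9 alcohol pools, 2 of 18 member probes had an array far from the others (Dixon's test at its 95% critical value of 0.493 for 9 arrays, which chance exceeds in about 1 in 20 groups). Mog was lowest in late high drinker pool 1 at -1.01, and the other alcohol pools lay at -0.75 or above. The dim second probe of Olig2 was highest in low drinker pool 2 at -4.53. No member had one drinking group above the water mean in every pool and another below it in every pool.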

How the results depend on the processing

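None of the 9 members passed the adjusted threshold under the 26 alternatives run for alcohol against water or the 25 run for the other comparisons, where the methods' t-test was not run. The differences of Mbp, Cldn11 and Ugt8a in late high drinkers kept their direction under those 25, between 0.0057 and 0.42, 0.16 and 0.39, and -0.33 and -0.12. In alcohol against water the methods' t-test called 1688 of 32371 probes at their unadjusted threshold and 0 after Benjamini-Hochberg adjustment, and 0 members either way. With small counts over all probes the number called moved easily, and the cause was not tested. In low drinkers against water (69 called) it was 6 with quantile normalization, 0 with no filter on low values, 1 for probes well above background on all arrays, 0 with slide as a fixed term, 8 with slide and 1 with scan day as a random term. In high against low drinkers (12) it was 1 with quantile normalization, 264 with normexp, 0 with no filter, 0 for probes well above background, 50 with slide fixed, 2 with slide and 2 with scan day as random terms. In late high drinkers against water (0) it was 64 for probes well above background, and in alcohol against water (0) it was 4 with slide fixed. In late against early high drinkers (0) it was 5 with quantile normalization, 1 with no scaling, 2 for probes well above background and 12 with slide fixed. Over the 4 groups (2) it was 0 with quantile normalization, 4 with no scaling, 1 with the median of bright probes as scale, 7 with normexp, 1 with the deposited table, 0 with no filter, 0 for probes well above background, 1 with outlier spots kept, 14 with slide fixed, 1 with slide and 1 with scan day as random terms.

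With no scaling, which shifted the median of all probes by 0.12 in late high drinkers, the members' median was 0.18 in late high drinkers, 0.14 in high against low and 0.21 in late against early drinkers, and the median correlation between members was 0.73. There Mbp (-0.017) and Cldn11 (-0.026) in low drinkers, Mog (0.12) and Olig2 (0.011) in late high drinkers, and Ugt8a in high against low (0.026) and late against early drinkers (0.10) changed sign. With slide fixed the members' median was -0.0061 in early high drinkers, -0.072 in late high drinkers and -0.059 in late against early drinkers. In alcohol against water that fit turned Mag (0.025), Gjb1 (-0.035), Gal3st1 (-0.12), Tcf7l2 (-0.37), Lhfpl3 (0.061) and S1pr5 (-0.0045), and in late high drinkers Mobp (-0.11), Mag (-0.014) and Mal (-0.10). Quantile normalization turned Mag (-0.010), normexp Mag (-0.034) and scan day Mog (0.0031) in late high drinkers, and normexp turned Mobp (-0.028) in alcohol. Averaging all probes of a gene turned Mag (0.00051) and Olig2 (0.10) in alcohol, Mbp in low drinkers (-0.00053), Mog (0.054) and Mag (-0.037) in late high drinkers, and Mbp in late against early drinkers (-0.010).

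Leaving out 1 array in turn moved the number of probes called from 0 to 2487 in low drinkers, 0 to 443 in late high drinkers, 0 to 1 in early high drinkers, 0 to 2172 in high against low, 0 to 197 in late against early and 0 to 1611 over the 4 groups. The highest values came without low drinker pool 1, or without late high drinker pool 3 (443), water pool 3 (1) and early high drinker pool 3 (197). Genes called of the 5 lists went from 0 to 1 in low drinkers and in high against low drinkers, and the members with a permutation p under 0.05 in alcohol against water from 0 to 2 (2 without low drinker pool 1). The members' median in late against early drinkers ran from -0.020 to 0.15. In alcohol, Mog ran from -0.0031 to 0.098, Mobp from -0.0052 to 0.067, Olig1 from -0.0093 to 0.10, Gal3st1 from -0.092 to 0.13 and Mag from -0.040 to 0.0012. Mbp in low drinkers ran from -0.017 to 0.12 and Ugt8a in late against early drinkers from -0.16 to 0.017. In late high drinkers, Mag ran from -0.056 to 0.10, Mog from -0.074 to 0.088, Olig1 from -0.011 to 0.10 and Mobp from -0.031 to 0.24.

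Replicate numbers did not pair the samples (same-numbered arrays of different groups correlated at a median of 0.00 over 18 pairs, and 4 of 12 arrays correlated best with their own number). With the replicate number as a block, 11 probes were called in low drinkers, 3 in high against low drinkers and 0 over the 4 groups, and no other count of calls moved by more than 1.5 times. The number of arrays limits the precision, and probes near background, such as the second of Olig2, add to the spread.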
